A study of Mesocricetus auratus with 8 samples.

Results

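A set of 37 genes of glucose use in the cell was examined in satellite cells (SCs), the stem cells of skeletal muscle, of the Syrian hamster, a hibernator, before and after 24 h at 4°C. The genes were taken by symbol from a list that covers glycolysis, pyruvate oxidation, the pentose phosphate pathway and glycogen metabolism. Of the 37 symbols, 35 had a row among the 17590 genes with values, and 34 of these passed the filter on low counts and stood among the 12506 genes tested. Pfkp and Ldha were not analysed here. Slc2a4, the insulin-regulated glucose transporter of mature muscle, was the member that did not pass the filter, with 0.11 to 0.36 TPM (a transcript level scaled for gene length and depth) in every library.

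SCs of wild-type (WT) male Slc:Syrian hamsters of 8 to 16 weeks were isolated from hindlimb muscle by preplating and grown on Matrigel in growth medium (GM) with serum and basic fibroblast growth factor. All libraries came from cells that had 48 h in GM and then 24 h in GM with 100 mM HEPES at 37°C. The 4 control libraries were taken at that point, and the 4 cold libraries after a further 24 h at 4°C with no change of medium. No library from 24 h longer at 37°C was analysed here, so cold and the added time in the same medium cannot be told apart. The treatment field of the control labels gives 3, 4, 5 and 6 days for replicates 1 to 4, whereas their titles all give day 3. The study describes the libraries as biological replicates. Neither it nor the labels say whether a number stands for an animal or a culture, and p-values measure the spread between these libraries.

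Depth was 16530747 to 18533801 expected counts per library, an estimate of the reads from each gene. Replicates 1 and 2 stood apart from replicates 3 and 4 in both groups on the first principal component of all genes, which held 53.9% of the variance, while cold and control separated on the second, with 17.9%. Results are therefore given without and with the replicate number as a block, which compares each cold library with the control library of the same number, and single results also within replicates 1 and 2 and within replicates 3 and 4. The label of the cells was checked against markers: 9 of 9 SC and myoblast markers were at 1 TPM or more on average. They summed to 2220 to 2620 TPM in control and 2120 to 2459 TPM in cold, lower in cold in 4 of 4 pairs. Cdh15, Itga7 and Myod1 among them were called lower with the block in edgeR (log2 fold changes of −0.32, −0.29 and −0.13), where 4.07% of all genes were. Pax7, Myf5 and Sdc4 went the other way (0.08, 0.08 and 0.04 with the block). Des, Vcam1 and Ncam1 had −0.09, −0.02 and −0.04, and none of these passed. Markers of differentiating muscle were also present (8 of 8, summed to 1635 to 3179 TPM in control and 830 to 1438 TPM in cold), and so were 6 of 8 fibroblast markers (998 to 1509 and 984 to 1468 TPM), while Pi16 was listed at 0 throughout and Fap was not analysed here. Of the immune markers, Cd68, Cd14 and Csf1r passed 1 TPM while the defining Ptprc and Adgre1 stayed at or below 0.03 TPM in every library. The 5 immune markers summed to 40.9 to 97.2 TPM in control and 44.1 to 105 TPM in cold, higher in cold in 4 of 4 pairs, and the part of any marker list in the members' differences was not tested.

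Glycolysis splits glucose into pyruvate in the cytosol and yields ATP without oxygen. Pyruvate is then reduced to lactate by lactate dehydrogenase, or enters the mitochondrion and is oxidised by the pyruvate dehydrogenase complex, which the PDK kinases switch off. Glucose can also be diverted into the pentose phosphate pathway, a source of NADPH for antioxidant defence, or stored as glycogen, the fuel reserve that contracting muscle breaks down through phosphorylase and its activating kinase. In hibernating mammals, torpor is known for a shift of whole-body fuel use from glucose towards fat.

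Most of these genes differed little between the groups, with Phka1, a regulator of glycogen breakdown, as the member with the largest difference. In the edgeR fit without the block, 0 of 34 members passed an adjusted p of 0.05, where 0.0720% of all genes did (in either direction). At an unadjusted p of 0.05 the same test gave 2 members lower in cold, Phka1 and Gys1 (5.88%, against 4.13% of all genes), and 0 higher (2.57% of all genes). DESeq2 without the block called 1 lower, Phka1 (2.94%, against 1.10% of all genes). With the replicate block, edgeR called 2 members lower, Phka1 and Gpi (5.88% of members against a background of 4.07% of all genes), and 1 higher, Pfkfb3 (2.94% against 1.26%). None of the 3 reached a log2 fold change of 1 in either direction. Within replicates 1 and 2 alone, edgeR called 6 members lower, Aldoa, Gpi, Gys1, Pdha1, Phka1 and Tpi1 (17.6%, against 6.85% of all genes), and Pfkfb3 higher (2.94%, against 4.73%). With the block and without replicate 4 the same 6 were lower (17.6%, against 4.88%) and Pfkfb3 again higher (2.94%, against 2.56%). With all 4 replicates, 1 to 2 members stand behind each share, and those shares are not a result about the members as a set.

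The median log2 fold change over the 34 members was −0.02 in both fits, against 0.01 over all genes tested, with 20 members below 0 and 14 above. With 1 library left out the members' median ran from −0.04 (without control replicate 3) to −0.02, and it was −0.05 within replicates 1 and 2 and 0.001 within replicates 3 and 4. With the block, the log2 fold changes ran from −0.58 (Phka1) to 0.21 (Pfkfb3). The 95% interval of the log2 fold change lay inside −0.5 to 0.5 for 32 of 34 members (94.1%), against 85.1% of all genes, the exceptions being Phka1 and Aldoc. Without the block it did so for 28 of 34 members and for 9275 of 12506 genes. These shares were not matched for transcript level, and the width of an interval depends on counts. The cold library was the lower of its pair in 4 of 4 pairs for 6 members, Gpi, Gys1, Pdha1, Pdk2, Phka1 and Tpi1 (17.6%, against 10.5% of all genes), and the higher for 3, Pfkfb3, Pgd and Pgm1 (8.82%, against 12.8%). TPM did not overlap between the groups for 2 members, Phka1 and Tpi1, both lower in cold (5.88%, against 2.41% of all genes), and for 0 higher in cold (2.27% of all genes).

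**Figure D1:**
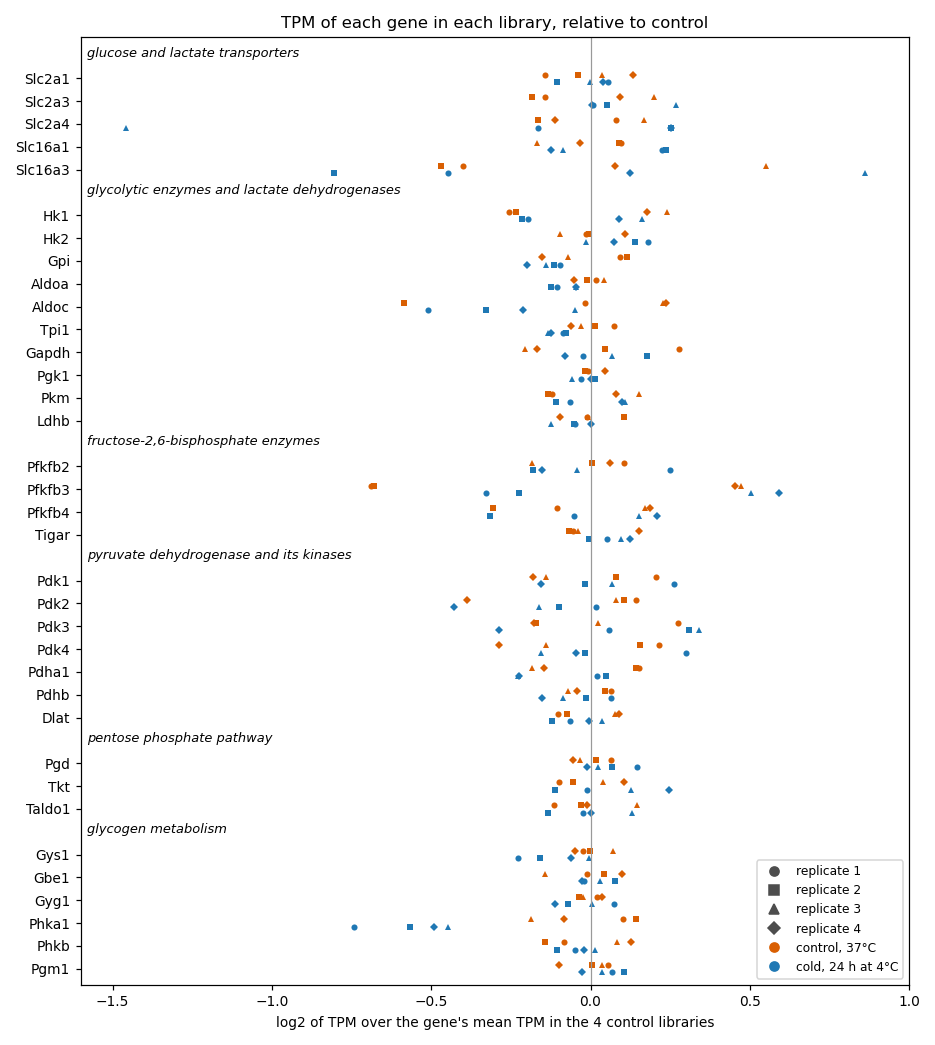
TPM of each of the 35 genes in each of the 8 libraries, as log2 of the value over the gene's mean TPM in the 4 control libraries (x axis), with genes grouped by role (y axis), colour for control or cold and marker shape for the replicate number. Phka1 is the gene whose 4 cold libraries stand furthest left of its controls, while Pfkfb3 and Slc16a3 spread by replicate number in both groups.

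**Figure D2:**
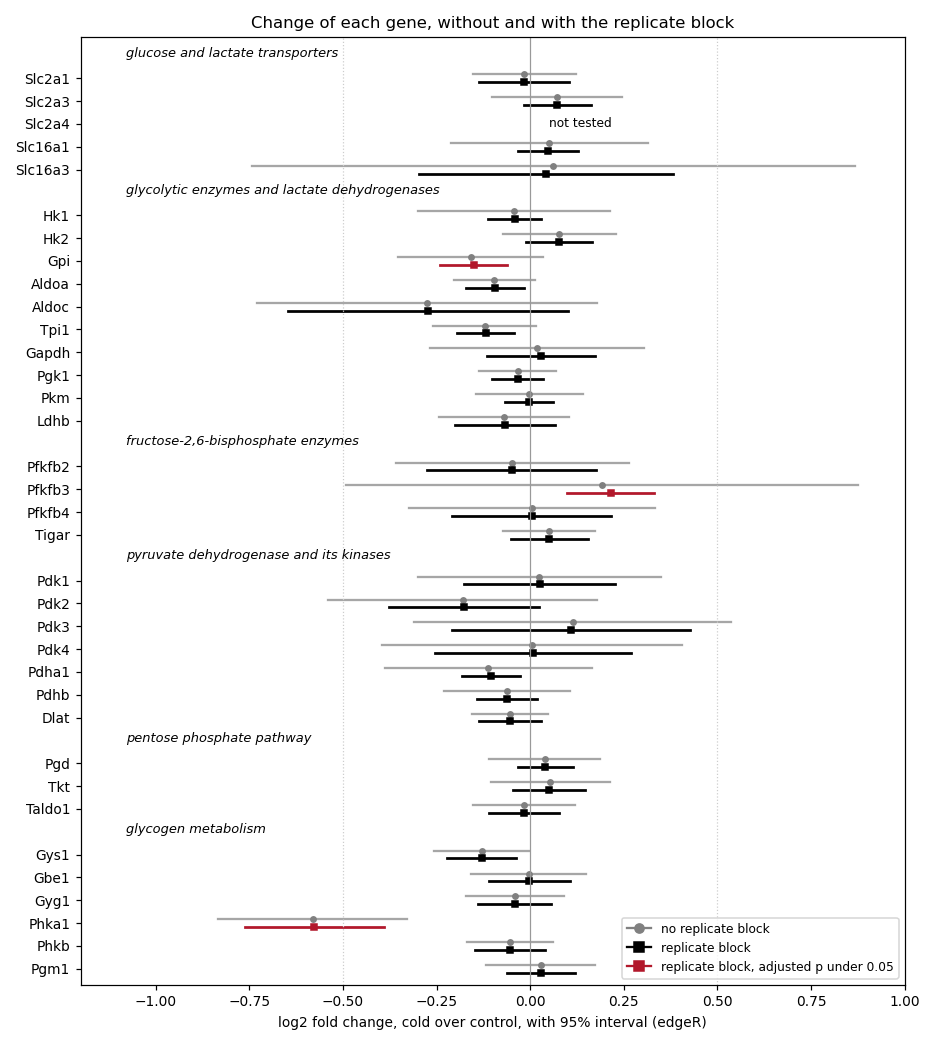
Log2 fold change of cold over control with its 95% interval for each gene (x axis) from edgeR without the replicate block (grey circles) and with it (squares, red where the adjusted p was under 0.05). Phka1, Gpi and Pfkfb3 are the red genes, and dotted lines mark log2 fold changes of −0.5 and 0.5.

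The most abundant transporter transcripts were those of Slc16a1 for lactate and Slc2a3 for glucose. Among 4 tested transporters 1 had a log2 fold change below 0 and 3 above, with a median of 0.06 (0.05 with the block, −0.002 without the block when control replicate 1 was left out), and none passed a test. Slc2a3 (GLUT3), a high-affinity glucose transporter, stood at 57.73, 56.14, 73.19 and 67.89 TPM in control replicates 1 to 4 and at 64.04, 66.05, 76.69 and 63.97 TPM in cold. These ranges overlap, and the log2 fold change was 0.07 (SE 0.08, adjusted p = 0.999, edgeR without the block). Slc2a1 (GLUT1), the widespread basal glucose transporter, averaged 20.9 TPM in either group (n = 4 each, with an SD of 1.68 for control and 1.03 for cold).

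Slc16a1 (MCT1), which moves lactate and pyruvate with protons, had 118.68, 117.97, 98.72 and 108.57 TPM in control replicates 1 to 4, against 129.52, 130.79, 104.46 and 101.84 TPM in cold. It was higher in 3 of 4 cold libraries than in the same-numbered control, but the direction of its log2 fold change of 0.05 turned when control replicate 3, cold replicate 1 or cold replicate 2 was left out. Slc16a3 (MCT4), the lactate exporter of glycolytic cells, was low, with 1.51, 1.44, 2.92 and 2.10 TPM in the 4 control libraries and 1.46, 1.14, 3.62 and 2.17 TPM after cold. The mean TPM of replicates 3 and 4 was 1.70 times that of replicates 1 and 2 in control and 2.23 times in cold, and the log2 fold change in cold was 0.04 with the block (95% interval −0.30 to 0.38).

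The glycolytic enzymes included the most abundant members, and 8 of the 10 tested had a log2 fold change below 0. Their median was −0.06 (−0.05 with the block), and 0 passed without the block and 1, Gpi, with it. Pkm, pyruvate kinase, which makes pyruvate and ATP in the last step, had the highest level of all members, at 2945.99, 2918.12, 3560.00 and 3382.96 TPM before cold and 3061.05, 2973.02, 3453.37 and 3427.14 TPM after it. Control and cold overlapped fully, and the log2 fold change of −0.003 (95% interval −0.07 to 0.06 with the block) took the opposite sign when it was computed from library totals or TPM.

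Gpi, which turns glucose 6-phosphate into fructose 6-phosphate, was lower in cold in 4 of 4 pairs. It stood at 320.13, 324.63, 285.71 and 269.77 TPM in control replicates 1 to 4, against 280.49, 276.93, 272.19 and 261.18 TPM in cold, so that the mean went from 300.1 ± 26.7 to 273 ± 8.40 TPM (SD, n = 4 each). The 2 highest values were control replicates 1 and 2, and the groups overlapped. Without the block the log2 fold change was −0.16 (SE 0.09, adjusted p = 0.868, edgeR). With the block it was −0.15 (SE 0.04, adjusted p = 0.0462), a change that DESeq2 with the block put at an adjusted p of 0.0744 and that edgeR with the block put at 0.185, 0.343 and 0.0554 when replicate 1, 2 or 3 was left out. Within replicates 1 and 2 the log2 fold change of Gpi was −0.27, and within replicates 3 and 4 it was −0.05.

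Tpi1, triosephosphate isomerase, had 642.43, 615.91, 597.45 and 584.54 TPM in the 4 control libraries and 574.65, 578.71, 555.94 and 559.54 TPM after cold. Every cold library lay below every control library, although the lowest control and the highest cold value were 584.54 and 578.71 TPM, and the exact two-sided permutation test gave p = 0.0286, the smallest that 4 against 4 libraries can give. In counts scaled by TMM the groups of Tpi1 overlapped. In edgeR the log2 fold change was −0.12 (adjusted p = 0.834 without and 0.0655 with the block), with −0.18 within replicates 1 and 2 and −0.07 within 3 and 4. Aldoa, the aldolase of muscle and the second most abundant member, had 1707.47, 1673.52, 1736.16 and 1625.94 TPM before cold and 1568.42, 1546.94, 1632.18 and 1632.78 TPM after it. Its log2 fold change was −0.10 (adjusted p = 0.83 without and 0.159 with the block), with −0.17 and −0.03 on the replicate sides. Tpi1 and Aldoa, like Slc16a3 above and Hk1 below, are given in every library although outside the rule for named genes, and were chosen after their values were seen.

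Aldoc, a minor aldolase known from brain, had the largest log2 fold change among the glycolytic enzymes, −0.28 (95% interval −0.73 to 0.18 without the block), at a low level of 2.49, 1.68, 2.95 and 2.97 TPM in control replicates 1 to 4, against 1.77, 2.01, 2.44 and 2.18 TPM in cold. The lowest of all 8 values was a control library, and no test called it (adjusted p = 0.972 without and 0.459 with the block, edgeR). Hk1 and Hk2, the hexokinases that trap glucose in the cell, had log2 fold changes of −0.04 and 0.08 and passed in neither fit. Pgk1 and Ldhb, phosphoglycerate kinase and the heart-type lactate dehydrogenase, had −0.03 and −0.07.

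Gapdh, often used as a reference gene, was at 78.7 to 110 TPM in control and 85.8 to 103 TPM in cold, with a log2 fold change of 0.02 (adjusted p = 0.999). Its expected counts carried decimals in 8 of 8 libraries, as happens where a counting program splits reads between similar sequences, so its level is uncertain. Those of Pgk1 did so in 5 of 8 libraries. The log2 fold change of Gapdh was −0.14 within replicates 1 and 2 and 0.19 within replicates 3 and 4, and the interaction term for this difference had an adjusted p of 0.0222 (edgeR).

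Fructose 2,6-bisphosphate, the strongest activator of phosphofructokinase, is made and removed by the PFKFB enzymes, and Tigar also degrades it. Of the 4 members of this group, 1 had a log2 fold change below 0 and 3 above, with a median of 0.03 (−0.003 without control replicate 2). Pfkfb3, the isoform with the highest kinase activity, was the most abundant of the 4 in replicates 3 and 4 and the only member of the 34 called higher in cold with the block. It had 11.14, 11.22, 24.91 and 24.60 TPM in the 4 control libraries and 14.32, 15.39, 25.48 and 27.08 TPM after cold. The cold library was higher in 4 of 4 pairs, but the gap between replicates 1 and 2 and replicates 3 and 4 was far wider than that between the groups, which overlapped.

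For Pfkfb3 the log2 fold change was 0.19 (SE 0.30, adjusted p = 0.999) without the block and 0.21 (SE 0.06, 95% interval 0.10 to 0.33, adjusted p = 0.0275) with it, both from edgeR. The call was lost without replicate 1 (adjusted p = 0.115) or replicate 2 (adjusted p = 0.263) and in DESeq2 with the block (adjusted p = 0.129). Within replicates 1 and 2 the log2 fold change was 0.35, and within 3 and 4 it was 0.10, a difference with an adjusted p of 0.108 for the interaction. The TPM ratio of replicates 3 and 4 over 1 and 2 was 2.21 in control and 1.77 in cold. Pfkfb2, Pfkfb4 and Tigar had log2 fold changes of −0.05, 0.00 and 0.05, and none passed.

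Pyruvate dehydrogenase commits pyruvate to the citric acid cycle. Its subunit genes Pdha1, Pdhb and Dlat had log2 fold changes of −0.11, −0.06 and −0.05, and none passed in either fit. Pdha1, the catalytic subunit gene that the PDK kinases act on, had 215.68, 214.28, 170.80 and 175.56 TPM before cold and 196.72, 200.79, 165.87 and 166.06 TPM after it. It was lower in 4 of 4 pairs by a margin smaller than the gap between replicate numbers (adjusted p = 0.999 without and 0.118 with the block, edgeR). Within replicates 1 and 2 the log2 fold change was −0.17, and within 3 and 4 it was −0.05.

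The 4 kinase genes were expressed at a few TPM each. Pdk2, the widespread isoform, had 6.93, 6.76, 6.64 and 4.80 TPM in control replicates 1 to 4, against 6.36, 5.86, 5.62 and 4.67 TPM in cold, lower in 4 of 4 pairs with a log2 fold change of −0.18 (adjusted p = 0.999 without and 0.344 with the block, edgeR). Pdk4, the isoform known to rise in fasting and hibernation, averaged 2.14 ± 0.349 TPM in the control group and 2.18 ± 0.309 TPM in the cold group (SD, n = 4). The fitted log2 fold change was 0.00, with a 95% interval of −0.25 to 0.27 with the block, and Pdk1 and Pdk3 had 0.02 and 0.11.

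The pentose phosphate genes measured here were Pgd, Tkt and Taldo1, with a median log2 fold change of 0.04 (−0.01 without cold replicate 4) and none called. Pgd, which makes NADPH in the oxidative branch, was the highest, at 216.10, 209.21, 202.08 and 199.09 TPM in the 4 control libraries and 228.62, 216.47, 210.02 and 204.92 TPM after cold. It was higher in 4 of 4 pairs, with a log2 fold change of 0.04 (95% interval −0.03 to 0.11 with the block). Tkt, transketolase of the non-oxidative branch, had 99.60, 102.69, 109.55 and 114.74 TPM before cold and 105.91, 98.75, 116.53 and 126.49 TPM after it. Its log2 fold change was 0.05 and turned to −0.01 without cold replicate 4. Taldo1, transaldolase, had −0.02.

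Glycogen metabolism held the member with the largest change. Of its 6 genes, 5 had a log2 fold change below 0, with a median of −0.05, and 1 was called with the block. Phka1 encodes the muscle form of the regulatory alpha subunit of phosphorylase kinase, the enzyme that switches on glycogen breakdown in response to calcium and adrenaline. Phka1 had 6.22, 6.39, 5.09 and 5.47 TPM in control replicates 1 to 4, against 3.46, 3.91, 4.25 and 4.12 TPM in cold.

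Every cold library of Phka1 lay below every control library (exact two-sided permutation test, p = 0.0286, the smallest possible), and the cold mean was 67.9% of the control mean (3.94 ± 0.346 against 5.79 ± 0.616 TPM, SD, n = 4 each). The log2 fold change was −0.58 (SE 0.11, 95% interval −0.83 to −0.33, adjusted p = 0.140) in edgeR without the block. With the block it was −0.58 (SE 0.09, adjusted p = 0.000260), and DESeq2 without the block gave an adjusted p of 0.00151. Leaving out 1 replicate number at a time with the block gave adjusted p values of 7.07e-05 to 0.00405, so no single pair decided the call.

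The size of the change in Phka1 differed with the replicate number. It was −0.84 on the log2 scale within replicates 1 and 2 (adjusted p = 1.5e-06) and −0.32 within replicates 3 and 4 (adjusted p = 0.573), and the interaction term of 0.51 had an adjusted p of 0.0106 in edgeR. Across the members 3 of 34 (Phka1, Gpi and Gapdh, 8.82%) passed this test of a difference between the replicate sides, against 3.00% of all genes. The control level of Phka1 was the higher in replicates 1 and 2, where the summed markers of differentiating muscle were also highest, at 3179 and 3118 TPM against 1635 and 1745 TPM in control replicates 3 and 4. In cold the markers of differentiating muscle summed to 1249, 1438, 956 and 830 TPM in replicates 1 to 4, lower than control in 4 of 4 pairs. There Phka1 was instead the lower in replicates 1 and 2, at 3.46 and 3.91 TPM, against 4.25 and 4.12 TPM in replicates 3 and 4. The part of these markers in the differences of Phka1, Gpi and Gys1 was not tested. In these bulk libraries, fewer cells of a type and less RNA per cell cannot be told apart.

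Gys1, glycogen synthase of muscle, was the most abundant of the glycogen genes, with 109.58, 111.20, 116.96 and 107.66 TPM in the 4 control libraries and 95.15, 99.80, 110.97 and 106.77 TPM after cold. It was lower in 4 of 4 pairs, while cold replicate 3 lay within the control range and cold replicate 4 just below it. The log2 fold change was −0.13 (SE 0.06, adjusted p = 0.732) without the block and the same size with it (adjusted p = 0.105), and it passed with the block when replicate 4 was left out (adjusted p = 0.00779). Within replicates 1 and 2 the log2 fold change of Gys1 was −0.24 (adjusted p = 0.000898) and within 3 and 4 it was −0.03 (adjusted p = 0.997), a difference with an adjusted p of 0.0532 for the interaction. Gbe1, the branching enzyme, Gyg1, the glycogenin primer, Phkb, the beta subunit of phosphorylase kinase, and Pgm1, phosphoglucomutase, had log2 fold changes of 0.00, −0.04, −0.05 and 0.03. None of these 4 passed in either fit.

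**Figure D3:**
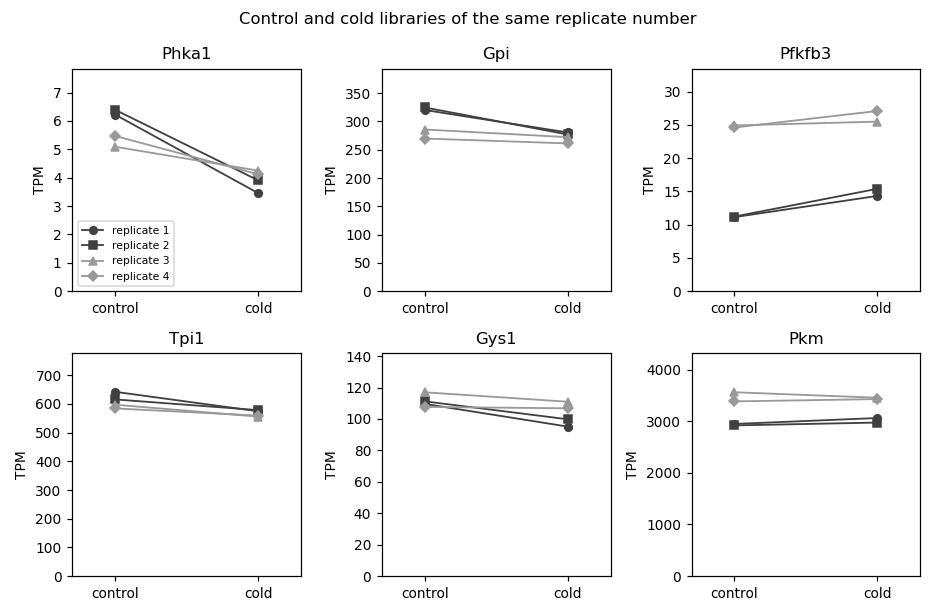
TPM (y axis, from 0) of 6 genes in control and cold, with a line for each replicate number, dark for replicates 1 and 2 and light for 3 and 4. The lines of Phka1 all fall and cross, those of Gpi, Tpi1 and Gys1 slope down slightly, those of Pfkfb3 slope up within 2 separate levels, and those of Pkm stay level.

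The remaining genes of these pathways were described from a second list of 66 symbols, of which 52 passed the filter. In edgeR without the block 1 of the 52 was called lower, Pgam2, where 0.0720% of all genes were called in either direction. With the block 8 of the 52 were lower, among them Pgam2, Pygm, Phkg1, Ppp1r3c, Pfkm, Eno3 and Pgm5, where 4.07% of all genes were. In either fit 0 were higher (1.26% of all genes with the block). At an unadjusted p of 0.05 there were 7 lower and 1 higher without the block, against 4.13% and 2.57% of all genes, and 10 lower and 1 higher with it, against 9.76% and 8.48%. The median log2 fold change was −0.03, with 31 genes below 0 and 21 above. The 8 genes hold several that are known as the muscle forms of their enzymes. Phkg1 among them passed the filter on low counts only through the control group.

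Pgam2, the muscle phosphoglycerate mutase, went from 103 ± 6.33 to 52.4 ± 5.65 TPM (log2 fold change −0.99, SE 0.09, adjusted p = 0.0194 without the block). With the block the adjusted p was 1.82e-09, and without the block the call was lost when leaving out control replicate 4, cold replicate 1, cold replicate 3 or cold replicate 4. Its widespread partner Pgam1 stood at 882 ± 63.4 TPM before cold and 915 ± 45.8 TPM after it. Pygm, the muscle glycogen phosphorylase that phosphorylase kinase activates, had 29.98, 28.85, 13.32 and 12.09 TPM in control replicates 1 to 4, against 9.94, 10.79, 5.25 and 5.12 TPM in cold, a log2 fold change of −1.47 without the block (adjusted p = 0.321) and −1.45 with it (adjusted p = 9.89e-11).

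The groups did not overlap for Pygm, and the level in replicates 3 and 4 was below that in 1 and 2 in both groups. Pygb, the phosphorylase named for brain, stood at 32.9 ± 1.85 and 34.4 ± 0.778 TPM (log2 fold change 0.05). Ppp1r3c, a subunit that brings protein phosphatase to glycogen, had 2.38 ± 1.22 TPM before cold and 1.08 ± 0.192 TPM after it (log2 fold change −1.14, adjusted p = 0.00160 with the block). Its log2 fold change was −1.64 within replicates 1 and 2 and −0.44 within replicates 3 and 4 (adjusted p = 0.997), and the interaction term for this difference had an adjusted p of 0.0355 in edgeR. For Pgam2 the values on the replicate sides were −1.06 and −0.92, and for Pygm −1.57 and −1.28. Phkg1, the muscle catalytic subunit of phosphorylase kinase, had 0.26 to 0.44 TPM in control and 0.05 to 0.20 TPM in cold, with only 2 to 18 counts per library. It passed the filter on low counts only through the control group, where it was high, so its call depends on that filter. The log2 fold change was −1.5 (adjusted p = 0.0215 with the block in edgeR and 0.271 with the block in DESeq2). Phkg2, the form known from liver, was at 42.2 ± 2.94 and 42.8 ± 1.55 TPM.

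Phka2, the liver form of the alpha subunit, averaged 14.0 ± 0.435 TPM before and 13.7 ± 0.471 TPM after cold, above Phka1 in level and with a log2 fold change of −0.05 (adjusted p = 0.552 with the block, edgeR). Among the other genes called with the block, Pfkm, the muscle phosphofructokinase, Eno3, the muscle enolase, and Pgm5, a relative of phosphoglucomutase found at muscle adhesions, had smaller log2 fold changes of −0.41, −0.20 and −0.23, and the call of Eno3 was lost in DESeq2 with the block (adjusted p = 0.294). They fell outside the rule for named genes, as did Phka2, Pgam1, Pygb and Phkg2, and were chosen after their values were seen. The summed markers of differentiating muscle were lower in cold in 4 of 4 pairs beside all of these changes, and their part in them was not tested.

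Isoform shares, each gene's percent of the summed TPM of its family in a library, changed little among the members. Hk1 held 88.7 ± 1.82% of hexokinase TPM in control and 87.9 ± 1.92% in cold (SD, n = 4 each), lower in 4 of 4 pairs, and Hk2 held 8.82 to 12.6% and 9.77 to 13.7%. Slc2a3 held 75.0 ± 1.63% and 76.1 ± 1.97% of the 3 glucose transporters. Slc16a1 held 98.0 ± 0.891% and 97.9 ± 1.25% of the monocarboxylate transporters, and Aldoa held 99.8% and 99.9% of the aldolases.

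Among the pyruvate dehydrogenase kinases, Pdk3 held the most, at 41.1 ± 3.16% in control and 44.2 ± 4.48% in cold. Pdk2 went from 33.4 ± 2.63% to 29.7 ± 1.5%, lower in 4 of 4 pairs with overlapping ranges of 30.6 to 36.0% and 28.0 to 31.5%. Pfkfb3 held 70.6 ± 8.11% of its family in control and 74.4 ± 5.48% in cold, higher in 4 of 4 pairs. Pygm held 36.4 ± 12.2% of the phosphorylases in control and 17.5 ± 5.80% in cold, and Pgam2 10.5 ± 1.15% and 5.42 ± 0.610% of the mutases.

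**Figure D4:**
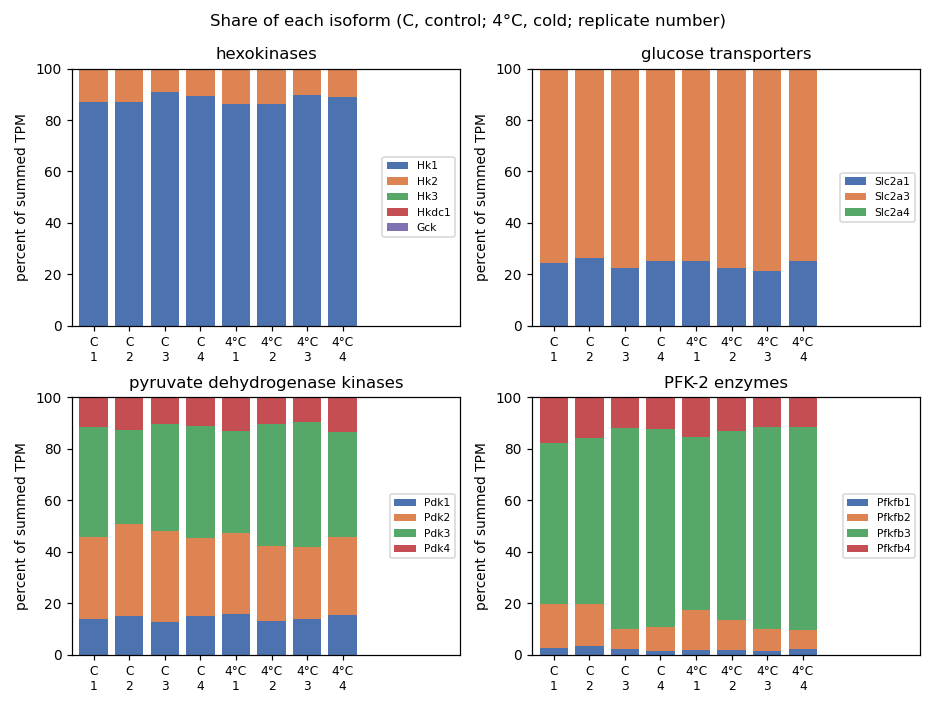
Percent of the summed TPM of each family (y axis) held by each isoform in each of the 8 libraries, for hexokinases, glucose transporters, pyruvate dehydrogenase kinases and PFK-2 enzymes (the Pfkfb genes). Hk1, Slc2a3 and Pfkfb3 hold the larger part in every library, and the share of Pfkfb3 is higher in replicates 3 and 4 than in 1 and 2.

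For most members the difference between replicate numbers was larger than that between cold and control. The median absolute log2 difference between replicates 3 and 4 and replicates 1 and 2 was 0.17 over the members in control and 0.14 in cold, beside a median absolute log2 fold change of 0.05 in cold with the block. Over all genes tested these medians were 0.18, 0.15 and 0.07, each larger than in the members. In 25 of 34 members (73.5%, against 50.5% of all genes) the replicate difference had the same sign in both groups and was the larger in both. Hk1 is an example, with 175.23, 177.93, 247.25 and 236.53 TPM before cold and 182.59, 180.13, 233.80 and 222.68 TPM after it.

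Hk1, Pkm, Pfkfb3 and Slc16a3 were higher in replicates 3 and 4, and Pdha1 was higher in replicates 1 and 2. Fibroblast and immune marker sums were also higher in replicates 3 and 4 of both groups. The fibroblast list summed to 998 to 1004 TPM in control replicates 1 and 2 and to 1317 to 1509 TPM in control replicates 3 and 4. The immune list, with Ptprc and Adgre1 near 0, summed to 40.9 to 46.7 and 75.3 to 97.2 TPM, and the part of either in the members' levels was not tested.

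**Figure D5:**
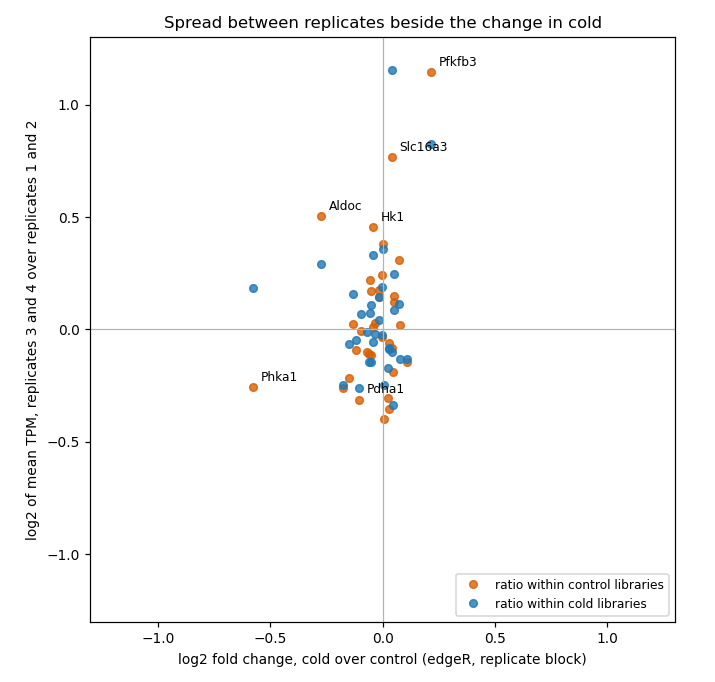
Log2 fold change of cold over control with the replicate block (x axis) against log2 of mean TPM in replicates 3 and 4 over that in replicates 1 and 2 (y axis), for the 34 tested genes, within control (orange) and within cold (blue), on equal scales. The points spread further along the vertical axis than along the horizontal one for 25 of the 34 genes, and Phka1, Aldoa and Tpi1 are among the exceptions.

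Summed over the 35 genes with values, the members made up 8184 to 8871 TPM in control and 8043 to 8596 TPM in cold, which is 0.804 to 0.887% of the TPM of all genes. The sum was lower in cold in 4 of 4 pairs, with overlapping ranges. Most of the summed TPM came from Pkm, itself higher in cold in 3 of 4 pairs, and Aldoa, lower in 3 of 4. The sum over the transporters was higher in cold in 3 of 4 pairs and that over the fructose 2,6-bisphosphate enzymes in 4 of 4, whereas the sums over the glycolytic, pyruvate dehydrogenase and glycogen groups were lower in 4 of 4.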

How the data were processed

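Poly(A) RNA libraries, 4 control and 4 cold, were sequenced by the authors as 150 bp paired-end reads. The submitters' processing notes name HISAT and HISAT2. The counting program and the genome build are not given in the sources used here, so no coordinates are printed. The deposited table holds expected counts made by the authors, not normalized and with 96.4 to 96.6% whole values per library, and deposited TPM values, scaled by the authors within each library. Its 8 columns of normalized counts were not used.

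Groups came from the labels. Rounded expected counts entered edgeR 4.0.16, run in R 4.3.3 (filterByExpr, TMM, quasi-likelihood F test, Benjamini-Hochberg adjustment over 12506 genes). Intervals are at 95%. TPM was compared by an exact two-sided permutation test over 70 arrangements, and shares were not tested. The alternatives were DESeq2 1.42.0, limma 3.58.1 on log2(TPM + 0.1, 1 or 0.01), where the larger added constants understate changes of low genes, other scalings and filters, each replicate left out, and the replicate block. The fits were tested on simulated data.

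The titles number the libraries 1 to 4 in each group. Deviations from the group means correlated, across genes, at 0.603 to 0.650 between same-numbered libraries, at 0.431 to 0.581 between other libraries on the same side of the first component, and at −0.601 to −0.546 otherwise, so the numbers were taken to pair the libraries. The split into replicates 1 and 2 against 3 and 4, and its interaction term, were added after seeing the data.

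Values in every library were given for members called in either fit and, in each role, for the member with the highest mean TPM and that with the largest absolute log2 fold change. Of the second list, genes called in either fit with an absolute log2 fold change of at least 0.5 were named. The members and lists were chosen with earlier results of these data known. Of the second list, 62 of 66 symbols had values. A gene of that list is not reported here. Endothelial, pericyte, Schwann cell and adipocyte markers summed to 2.02 to 3.95, 43.2 to 53.5, 1.67 to 2.77 and 0 to 0.1 TPM per library.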

Additional observations from a re-analysis of the deposited data

Results flagged for a closer look

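In 4 of the 70 groups of 4 libraries examined, 1 library stood far from the other 3, where chance alone would give about 1 in 20, or 3.5. Control replicate 4 was the highest of its group for Pgk1 (908.27 TPM) and Tigar (19.59 TPM) and the lowest for Pdk2 (4.80 TPM). Cold replicate 3 was the highest of its group for Slc2a3 (76.69 TPM).

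The change in cold differed between the replicate sides for 3 members. The log2 fold change in replicates 3 and 4 minus that in replicates 1 and 2 was 0.51 for Phka1 (adjusted p = 0.0106), 0.22 for Gpi (adjusted p = 0.0284) and 0.32 for Gapdh (adjusted p = 0.0222), all from the interaction term in edgeR. Of the second list, Ppp1r3c had a difference of 1.21 in the same test (adjusted p = 0.0355). The sides were taken from the first principal component of these same libraries, and the source of the split was not tested.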

How the results depend on the processing

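The count of members called lower, 0 without the replicate block, became 2 with it (also with RLE factors or library totals), 1 in DESeq2 with or without the block and in limma on log2(TPM + 1) with the block, 6 within replicates 1 and 2 only, and 1 to 6 when 1 replicate number was left out with the block, the 6 without replicate 4. Members called higher became 1 with the block (also with RLE factors or library totals) and within replicates 1 and 2, and 0 to 1 with 1 number left out. Of the second list, 1 gene called lower became 8 with the block (also with RLE factors or library totals), 2 in DESeq2 (1.10% of all genes), 6 in DESeq2 with the block, 5 in limma with the block, 9 within replicates 1 and 2 (6.85% of all genes), 2 within replicates 3 and 4, 0 to 1 with 1 library left out, and 7 to 8 with 1 number left out with the block. No share of all genes is given here for the other settings. At a log2 fold change of 1 as well, 0 were called lower without and 3 with the block (Pygm, Phkg1 and Ppp1r3c, beside 101 of 12506 genes). For the members no call at that fold was made in either fit. The count of members that did not overlap between the groups, 2 in TPM, was 1, Phka1, in TMM-scaled CPM. Median log2 fold changes moved to −0.143 for the glycolytic and −0.0407 for the pentose phosphate genes within replicates 1 and 2, and for pyruvate dehydrogenase to between −0.103 and −0.0275 with 1 library left out. Pkm turned from −0.003 to 0.000600 (library totals), 0.000797 (block, library totals), 0.0143 (limma at each pseudocount, and with the block), 0.000313 (replicates 3 and 4) and 0.00762 (block, without replicate 3), and ran from −0.0352 to 0.0329 with 1 library left out. With 1 library left out Slc16a1 ran from −0.0223 to 0.112 and Tkt from −0.00977 to 0.0961, and Tkt was −0.0407 within replicates 1 and 2. The cause was not tested. Slc2a4 had 3 to 10 and Phkg1 2 to 18 counts per library, so their values are imprecise, and Phkg1 passed the filter only through the control group.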
